A study of Mus musculus with 12 samples.

Results

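The CXC and CX3C chemokine ligands examined here were Cxcl1, Cxcl2, Cxcl5, Cxcl9, Cxcl10, Cxcl12, Cxcl14, Cxcl16 and Cx3cl1. They were chosen by symbol, as the rows of the count table whose Ensembl identifier maps to one of these names, and they make up 9 of the 55573 genes in the table. Their RNA was counted in cultured fibroblasts of mid-gestation C57BL/6 mouse embryos (MEFs), a connective tissue cell type. The cells carry a doxycycline-inducible cassette of Oct4, Sox2, Klf4 and Myc (OSKM), the factors that convert fibroblasts into pluripotent stem cells. Cells from 3 embryos, named clones 1 to 3, were grown for 72 h in stem cell medium with LIF. The MEF group had neither doxycycline nor added vitamin B12, the MEF+B12 group had 2 µM B12, the OSKM group had doxycycline at 1 µg/ml, and the OSKM+B12 group had both. Each group held 3 libraries, 1 per clone. All cells, uninduced ones included, carry the cassette, and only induced cells saw doxycycline, so the drug and the factors cannot be told apart. The comparisons address how induction of reprogramming, and B12 during it, change transcription before colonies form.

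Chemokines are small secreted proteins that steer migrating cells through receptors coupled to G proteins. They are classed by the spacing of their first cysteines. Members of the CXC class with a glutamate-leucine-arginine (ELR) motif attract neutrophils through Cxcr2, whereas Cxcl9 and Cxcl10 are induced by interferon and attract T cells through Cxcr3. Cxcl12 holds stem cells and progenitors in their niche through Cxcr4, and Cxcl14 is made constitutively in many epithelia and stromal cells. Cxcl16 and Cx3cl1 differ from the rest in having a membrane anchor, from which the proteases Adam10 and Adam17 release them. Fibroblasts are a known stromal source of several of these ligands.

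Library totals ranged from 56971244 to 79236795 counted read pairs, and 19174 genes passed the filter on low counts, all 9 ligands among them. Levels are given in CPM, counts scaled to a common library size (1e+06) with TMM factors. Pou5f1, which encodes Oct4, was at 18.5 to 20.7 CPM in clones 1 and 2 after induction and at 2.33 to 2.86 CPM in clone 3, against at most 0.468 CPM without doxycycline. Means in MEF and OSKM were 0.519 and 10.4 CPM for Sox2, and 19.2 and 39.1 CPM for Myc. The rise was uneven: Sox2 was at 2.33 CPM in clone 3 in OSKM. The lowest OSKM library had 20.0 CPM of Myc, within the MEF range of 16.4 to 22.5 CPM. Klf4 did not rise: its means were 135 CPM in MEF and 121 CPM in OSKM, and it was lower after induction in 6 of 6 pairs of the same clone. Fibroblast markers were abundant: the 10 listed summed to between 88170 and 141800 CPM. The library of clone 1 in the OSKM group stood apart in its pseudogenes. Over 1519 pseudogenes its log2 levels differed from the other libraries of its clone with an SD of 0.556, against 0.114 to 0.247 in the other libraries. The library titles give clone 1 a later year than clones 2 and 3, which share theirs.

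Promoter sequence was examined first, since several of these genes stand side by side in the genome and share regulators. On GRCm38, Cxcl5 (chr5:90759360-90761624), Cxcl1 (chr5:90891241-90893115) and Cxcl2 (chr5:90903871-90905938) lie on the plus strand of chromosome 5, and Cxcl9 (chr5:92321347-92328079) and Cxcl10 (chr5:92346638-92348889) lie further along it on the minus strand. Cxcl12 is at chr6:117168535-117181367, Cxcl14 at chr13:56288643-56296551, Cxcl16 at chr11:70453983-70459984 and Cx3cl1 at chr8:94772009-94782427. RefSeq windows (GRCm38.p6) were matched by symbol for 7 of the 9 ligands, and Cxcl5 and Cxcl16 had none. For Cxcl1, Cxcl2 and Cx3cl1 the RefSeq start lies downstream of the GENCODE start given above. The 250 bases before each RefSeq start were searched on both strands for 4 short motifs. These were an NF-kB type motif (GGGANNTTC), an interferon response (ISRE) type motif (GAAANNGAA), a STAT type motif (TTCNNNGAA) and a TATA motif (TATAAA). Among 32851 windows of that length, 3.23% held the NF-kB type motif, 7.13% the ISRE type, 7.02% the STAT type and 12.4% the TATA motif.

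The 220 bases before the start of the ELR ligands Cxcl1 and Cxcl2 are shown because both hold the same 11 bases, in which overlapping matches to the NF-kB type motif lie on both strands, offset by 2 bases. Motif matches are in capitals, and sequences run 5′ to 3′ on the gene's strand.
Cxcl1, chr5:90891025-90891244, plus strand: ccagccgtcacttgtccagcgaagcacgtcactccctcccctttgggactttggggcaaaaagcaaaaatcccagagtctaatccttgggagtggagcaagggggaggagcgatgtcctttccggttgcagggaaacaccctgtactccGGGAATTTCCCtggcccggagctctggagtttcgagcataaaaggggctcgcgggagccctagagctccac
Cxcl2, chr5:90903679-90903898, plus strand: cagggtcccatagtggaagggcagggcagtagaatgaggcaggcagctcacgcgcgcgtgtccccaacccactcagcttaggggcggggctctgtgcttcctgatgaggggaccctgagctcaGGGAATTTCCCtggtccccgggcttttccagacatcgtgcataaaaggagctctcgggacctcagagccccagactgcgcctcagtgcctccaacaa

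Those of Cxcl9 and Cxcl10 are shown because each holds both an NF-kB type and an ISRE type match. In Cxcl10 the ISRE type match begins 213 bases before the start and the NF-kB type match 159 bases before it. In Cxcl9 these matches begin 175 and 154 bases before the start, and a TATA match begins at 195.
Cxcl9, chr5:92328080-92328299, minus strand: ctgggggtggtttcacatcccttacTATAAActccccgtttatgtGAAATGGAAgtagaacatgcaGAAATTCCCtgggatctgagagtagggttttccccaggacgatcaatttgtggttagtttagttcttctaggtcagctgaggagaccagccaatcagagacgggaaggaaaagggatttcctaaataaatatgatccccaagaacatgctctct
Cxcl10, chr5:92348890-92349109, minus strand: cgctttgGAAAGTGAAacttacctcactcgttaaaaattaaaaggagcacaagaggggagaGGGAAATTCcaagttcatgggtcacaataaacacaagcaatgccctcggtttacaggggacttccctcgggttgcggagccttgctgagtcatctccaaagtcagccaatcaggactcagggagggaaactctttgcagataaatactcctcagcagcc

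The homeostatic ligands Cxcl12 and Cxcl14 are shown as well, since both passed the test for averaged induction described below. Cxcl5 also passed it but had no window, so motifs cannot be set against that test. The Cxcl12 window held none of the 4 motifs, and that of Cxcl14 held a STAT type match beginning at 191 and an ISRE type match beginning at 172 bases before the start. In Cx3cl1 only a TATA match was present, in the 6 bases next to the RefSeq start. The last 220 bases of that window (chr8:94771960-94772179) run past the GENCODE start at 94772009, so this match lies inside the annotated gene. The matches are a description of letters, and binding was not measured.
Cxcl12, chr6:117168315-117168534, plus strand: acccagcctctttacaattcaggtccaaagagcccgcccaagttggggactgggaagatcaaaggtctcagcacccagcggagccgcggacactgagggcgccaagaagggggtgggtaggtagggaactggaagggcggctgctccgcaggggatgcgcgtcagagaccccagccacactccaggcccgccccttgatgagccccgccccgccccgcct
Cxcl14, chr13:56296552-56296771, minus strand: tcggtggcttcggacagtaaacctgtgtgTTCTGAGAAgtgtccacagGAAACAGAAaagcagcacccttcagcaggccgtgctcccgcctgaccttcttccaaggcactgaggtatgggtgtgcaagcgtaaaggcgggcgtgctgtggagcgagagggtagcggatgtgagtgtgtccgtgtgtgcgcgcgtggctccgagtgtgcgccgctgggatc

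The ligands spanned a wide range of levels in unsupplemented, uninduced fibroblasts. To compare genes, CPM was divided by the kilobases of annotated exon (RPKM). Cxcl12 stood highest at 106 ± 24.3 RPKM (SD, n = 3), followed by Cxcl5 at 77.0 ± 10.9 and Cxcl14 at 62.9 ± 16.2. The ranges of these neighbours overlapped, and Cxcl5 was above Cxcl14 in 4 of the 12 libraries. A gap separated them from Cxcl16 (6.37 ± 0.964 RPKM) and Cxcl10 (6.36 ± 4.34), which did not differ beyond their spread. Cxcl1 (2.81 ± 1.31) and Cx3cl1 (2.32 ± 0.205) also overlapped. Cxcl9 at 1.07 ± 0.863 RPKM and Cxcl2 at 0.201 ± 0.0463 were lowest, and neither range overlapped with that of the neighbour above. Cxcl10 overlapped with Cxcl1 in range but was above it in 12 of 12 libraries. Cxcl2 had only 7 to 95 counts per library, so its differences carry wide intervals. Cxcl12 had 30653 to 66918 counts.

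**Figure D1:**
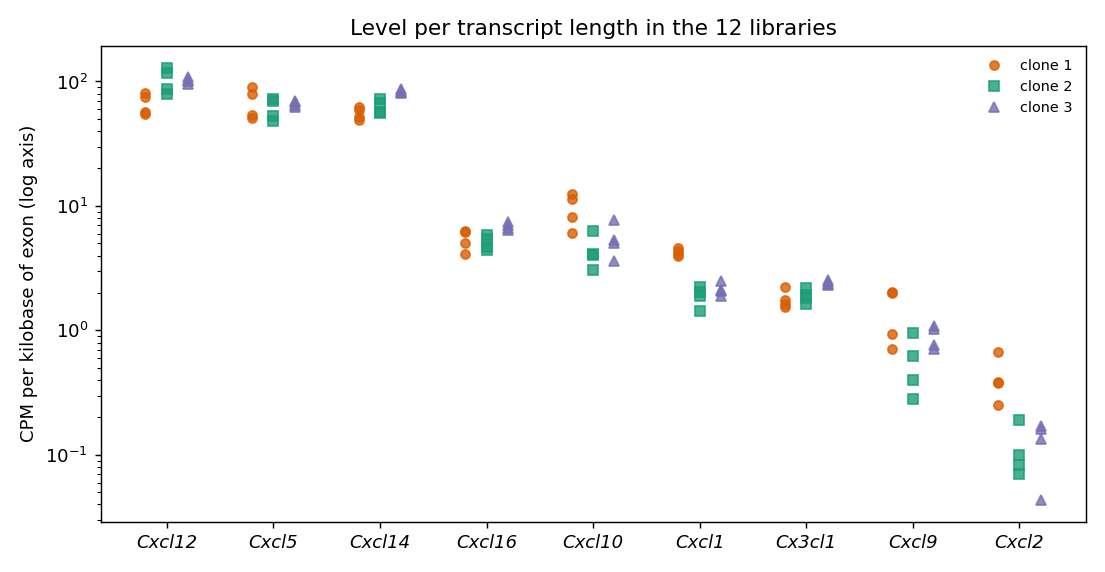
Level of each ligand per kilobase of exon (log axis) in the 12 libraries, ordered by the MEF mean, with 4 points per clone (1 per group). Cxcl12, Cxcl5 and Cxcl14 form the upper level, and Cxcl2 is lowest.

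Cxcl12 and Cxcl5 fell and Cxcl14 rose with induction when averaged over both B12 levels. With the edgeR quasi-likelihood test, 3 of 9 ligands passed an adjusted p of 0.05 in this average, where 9.73% of all genes tested did. DESeq2 passed 5 of 9 ligands and 12.9% of all genes. The median log2 fold change over the 9 ligands was -0.25, that over all genes was -0.003, and 8 of the 9 were negative. The average counts both pairs of libraries of a clone, which come from 1 embryo. When the libraries of a clone were summed over B12, so that each clone gave 1 uninduced and 1 induced library, 0 of 9 ligands and 5 of 19968 genes passed with edgeR, and Cxcl12, Cxcl5 and Cxcl14 each had an adjusted p of 0.224. Their unadjusted p-values in that edgeR fit were 0.00619, 0.0121 and 0.01, where 3511 genes had one under 0.05. The averaged edgeR calls of these ligands were therefore lost when each clone counted as 1 pair, in a fit where 0.0250% of all genes passed. That fit also has fewer libraries, and the part of replicate counting in the loss was not tested. Of the other listed genes, Pou5f1 alone passed the summed fit for induction (adjusted p = 0.00052), so the averaged induction calls of the other listed genes below carry the same limit.

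In single comparisons fewer ligands stood out. For OSKM against MEF, 0 of 9 passed with edgeR (0.0730% of all genes), 4 had an unadjusted p under 0.05 (19.0% of all genes), and DESeq2 passed 3 (2.54%), namely Cxcl12, Cxcl5 and Cxcl14. For OSKM+B12 against MEF+B12, 0 of 9 passed with edgeR (0.104%), 4 had an unadjusted p under 0.05 (14.9%), and DESeq2 passed Cxcl12 alone (2.17%). Without clone 3, the clone with the lowest Pou5f1, edgeR passed 3 of 9 ligands in OSKM against MEF (6.87% of all genes in that fit) and 5 of 9 with B12 (5.22%).

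Among the homeostatic ligands, Cxcl12 was at 663, 1058 and 892 CPM in MEF for clones 1, 2 and 3, and at 462, 709 and 831 CPM in OSKM. With B12 it was at 609, 948 and 842 CPM in uninduced and 451, 653 and 780 CPM in induced cells. The groups overlapped because the clones differed in level, yet Cxcl12 was lower after induction in 6 of 6 pairs of the same clone. The averaged log2 fold change was -0.38 ± 0.068 (SE), a decrease of 23.2% (95% interval -0.53 to -0.23 on the log2 scale, edgeR adjusted p = 0.0183). Cxcl14 moved the other way, from 94.4, 102 and 149 CPM in MEF to 114, 132 and 159 CPM in OSKM. With B12 it went from 89.6, 104 and 151 CPM to 108, 122 and 153 CPM. It was higher in 6 of 6 pairs, by 0.21 ± 0.044 on the log2 scale or 15.7% (adjusted p = 0.0234), although the groups overlapped. Both calls were lost when clone 1 was left out, which keeps only the libraries of the earlier title year (Cxcl12 -0.33 and Cxcl14 0.18, both with adjusted p = 0.262). They were also lost without clone 2 (-0.29 and 0.17, both with adjusted p = 0.426). Few genes of any kind passed in these fits, 0.0524% of all genes without clone 1 and 0.0155% without clone 2.

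The ELR ligands differed in level and in response. Cxcl5, which attracts neutrophils and is made by stimulated stromal and epithelial cells, was at 167, 134 and 130 CPM in MEF and at 95.7, 97.6 and 128 CPM in OSKM. With B12 it was at 148, 129 and 121 CPM in uninduced and 101, 89.3 and 117 CPM in induced cells. Its groups did not overlap at either B12 level, but in clone 3 the induced and uninduced values lay close together. The averaged log2 fold change was -0.40 ± 0.089 (adjusted p = 0.0265), a decrease of 24.3%, with 6 of 6 pairs lower. Without the OSKM library of clone 1 that stood apart it was -0.33 with an adjusted p of 0.0529. Without clone 1 it was -0.26 (adjusted p = 0.266), and without clone 2 it was -0.35 (adjusted p = 0.426). Only 0.0524% and 0.0155% of all genes passed in those fits.

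Cxcl1, which acts through the same receptor as Cxcl5, was at 8.12, 3.83 and 3.88 CPM in MEF and at 7.37, 3.53 and 3.57 CPM in OSKM. With B12 it was at 7.67, 4.18 and 4.69 CPM in uninduced and 8.61, 2.69 and 3.96 CPM in induced cells. Its averaged log2 difference of -0.17 ± 0.097 did not pass (adjusted p = 0.302), and clone 1 was highest in each group. Cxcl2 was between 0.0898 and 1.40 CPM in all libraries, and its averaged log2 difference was -0.11 with a 95% interval of -0.88 to 0.66. At this depth and spread between libraries a change of Cxcl2 by less than that was not detectable. As 7.59% of its sequence words recur in other transcripts, some of its reads could be shared.

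**Figure D2:**
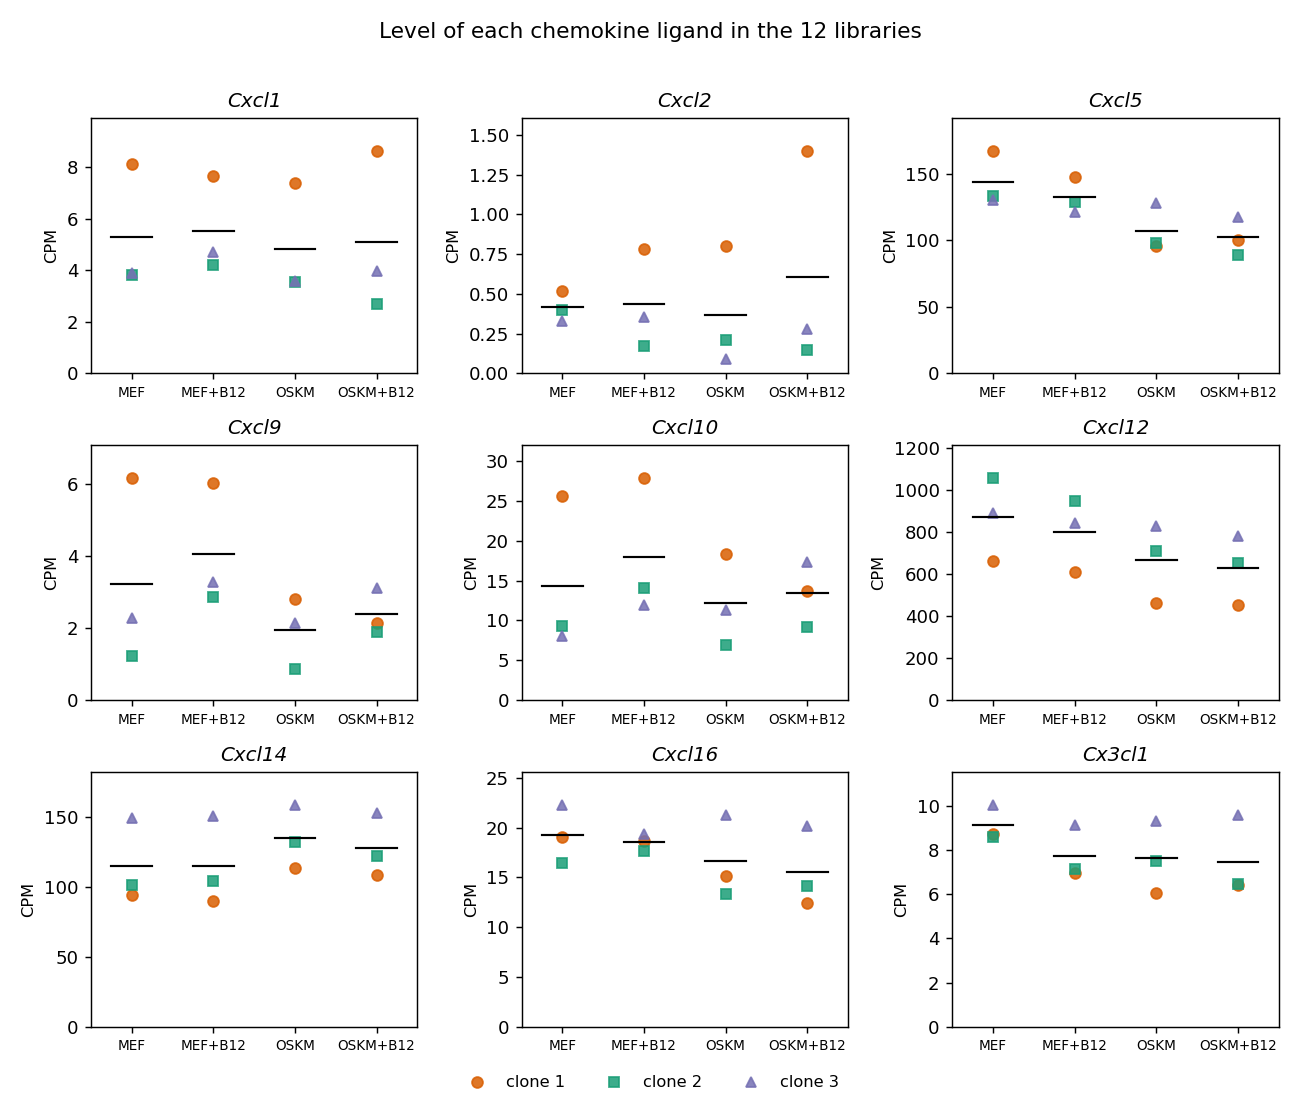
CPM of each ligand (vertical axes from 0) in each library, by group, with symbols for the 3 clones and a bar at each group mean. Cxcl5 and Cxcl12 sit lower and Cxcl14 higher in OSKM and OSKM+B12, and clone 1 stands above the others in Cxcl1 throughout.

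The interferon-inducible pair also varied between clones. Cxcl9 was at 6.17, 1.22 and 2.29 CPM in MEF for clones 1, 2 and 3 and at 2.82, 0.847 and 2.13 CPM in OSKM. With B12 it was at 6.03, 2.86 and 3.28 CPM in uninduced and 2.15, 1.88 and 3.12 CPM in induced cells. All 6 pairs were lower after induction, by 0.072 to 1.48 on the log2 scale, and the averaged log2 difference of -0.66 ± 0.242 was the furthest from 0 among the ligands. It did not pass with edgeR (adjusted p = 0.109) and passed with DESeq2 (adjusted p = 0.0318). Cxcl10 was at 25.6, 9.30 and 8.07 CPM in MEF and at 18.3, 6.88 and 11.3 CPM in OSKM. With B12 it was at 27.9, 14.1 and 11.9 CPM in uninduced and 13.7, 9.13 and 17.3 CPM in induced cells. It was lower after induction in the 4 pairs of clones 1 and 2 and higher in the 2 pairs of clone 3, so that its average of -0.26 ± 0.204 did not pass (adjusted p = 0.464). Without clone 3 it was -0.64 with an adjusted p of 0.0155. Cxcl10 overlaps Art3 on the other strand, and the counting was strand-specific.

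The membrane-anchored ligands were lower in 5 of 6 pairs each. Cxcl16, which is also a scavenger receptor on macrophages, was at 19.0, 16.5 and 22.3 CPM in MEF and at 15.2, 13.4 and 21.3 CPM in OSKM. With B12 it was at 18.7, 17.7 and 19.4 CPM in uninduced and 12.4, 14.2 and 20.2 CPM in induced cells. The averaged log2 difference was -0.25 ± 0.078, with an edgeR adjusted p of 0.0653 and a DESeq2 adjusted p of 0.0226. Cx3cl1, known as fractalkine, was at 8.75, 8.60 and 10.1 CPM in MEF and at 6.08, 7.54 and 9.31 CPM in OSKM. Its averaged log2 difference was -0.17 ± 0.066 (adjusted p = 0.136). The libraries with B12 lay within 6.41 to 9.60 CPM for Cx3cl1. Adam10 and Adam17, which cleave both, differed by -0.02 ± 0.035 and -0.04 ± 0.033 on the log2 scale (adjusted p = 0.768 and 0.44).

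Markers of other cell types moved with induction as well. Of 10 fibroblast markers, 4 fell (Col1a1, Col1a2, Pdgfra and Pdgfrb) and 0 rose, with Col1a1 at -0.35 ± 0.080 (adjusted p = 0.0277). The endothelial markers Cdh5 and Tek rose by 1.22 ± 0.236 and 1.27 ± 0.210 (adjusted p = 0.0207 and 0.0171). The summed endothelial level was 43.0 to 48.7 CPM in uninduced cells and 49.6 to 146 CPM in induced cells. Most of that sum was Tek, with means of 38.7 CPM in MEF and 101 CPM in OSKM. The other endothelial markers tested did not pass (Kdr 0.01 ± 0.102 and Vwf -0.12 ± 0.141), and Pecam1, Tie1 and Emcn were too scarce to test. Of 13 macrophage markers, 3 fell (Adgre1, Csf1r and Aif1) and Itgam rose, though 68.1% of the sequence words of Itgam recur in other transcripts. The epithelial markers Cdh1 and Krt8 rose in a list that summed to at most 1.13 CPM in uninduced cells and to 0.630 to 4.73 CPM in induced cells. Krt8 was higher in 5 of 6 pairs, and 32.3% of its sequence words recur in other transcripts. The part of these cells in the ligand differences was not tested, and in bulk RNA fewer cells of a type and less RNA per cell cannot be told apart.

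The response to induction was then compared between clones by an F test of the clone by state term. It differed for 2 of 9 ligands, Cxcl5 (adjusted p = 0.0125) and Cxcl12 (adjusted p = 0.0151), where 2.15% of all genes tested passed. For Cxcl5 the log2 difference without B12 was -0.80 in clone 1, -0.45 in clone 2 and -0.02 in clone 3, and with B12 it was -0.56, -0.53 and -0.05. For Cxcl12 it was -0.52, -0.58 and -0.10 without B12, and -0.44, -0.54 and -0.11 with it. The differences were thus small in clone 3, whose Pou5f1 and Sox2 were also lowest after induction, and large in clones 1 and 2. With clone 3 left out neither passed (adjusted p = 0.871 and 0.887), and Cxcl12 did not pass without clone 2 (adjusted p = 0.086). Of all genes, 0% passed without clone 3 and 1.01% without clone 2, so the first of these losses is not particular to the ligands.

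Cxcl10 was the only ligand with opposite signs in both pairs of different clones, apart from the sparse Cxcl2. Its log2 differences were -0.48 and -1.03 in clone 1, -0.43 and -0.63 in clone 2, and 0.48 and 0.53 in clone 3. The difference between the 3 clones did not pass (adjusted p = 0.119), but it passed without clone 1 (adjusted p = 0.00316) and without only the OSKM library of clone 1 (adjusted p = 0.0032). Cxcl14 differed by 0.27 and 0.27 in clone 1, 0.38 and 0.24 in clone 2, and 0.09 and 0.02 in clone 3, and did not pass (adjusted p = 0.145). Of the 12 interferon response genes listed, Ifit3, Ifi44 and Usp18 also passed this test (adjusted p = 0.00569, 0.0125 and 0.0316), and of 11 NF-kB response genes 0 did. Reads of Ifit3 could be shared, as 61.8% of its sequence words recur in other transcripts. Each clone is 1 embryo with 1 library per condition, so the clone by state test measures the difference between these embryos only. Its error comes from the pairs of the same embryo with and without B12, counted as replicates.

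**Figure D3:**
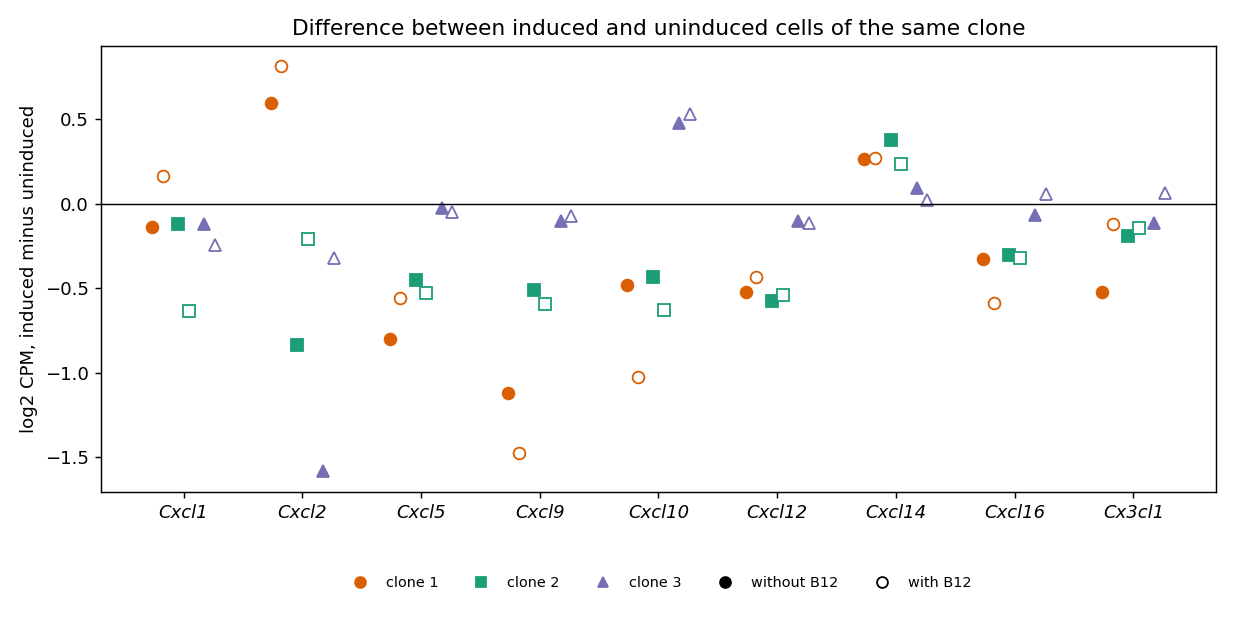
Log2 CPM of induced minus uninduced cells of the same clone for each ligand, without B12 (filled) and with B12 (open). Points of clone 3 lie near 0 for Cxcl5, Cxcl9, Cxcl12 and Cxcl14, and above 0 for Cxcl10, where clones 1 and 2 lie below 0.

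None of the 9 ligands passed the threshold for vitamin B12. In uninduced cells 0 of 9 passed with edgeR (1.38% of all genes) and 0 with DESeq2 (2.45%), and 1 ligand, Cx3cl1, had an unadjusted p under 0.05 (10.3% of all genes). In induced cells 0 of 9 passed with edgeR (1.06%) and 0 with DESeq2 (2.02%), and 0 had an unadjusted p under 0.05 (9.82%). Averaged over both states, 0 of 9 passed with edgeR (3.84%) and 0 with DESeq2 (4.87%), and 0 had an unadjusted p under 0.05 (15.5%). The median log2 difference over the ligands was -0.04, against -0.013 over all genes, with 4 higher and 5 lower. DESeq2 gave no adjusted p for Cxcl2 in the single comparisons. With the libraries of a clone summed over both states, 0 of 9 ligands and 4.59% of all genes passed with edgeR, while 4 ligands had an unadjusted p under 0.05 (18.9% of all genes). These were Cxcl12 and Cxcl5, which were lower with B12, and Cxcl10 and Cxcl9, which were higher, with edgeR adjusted p of 0.144, 0.175, 0.163 and 0.257.

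The intervals differed much between ligands. For Cxcl12, the averaged B12 difference was -0.10 ± 0.068, with a 95% interval of -0.25 to 0.05, although all 6 pairs were lower, by 0.036 to 0.158. For Cxcl14 the interval was -0.14 to 0.05, for Cxcl5 it was -0.29 to 0.11, and for Cxcl16 it was -0.24 to 0.11. Cx3cl1 was at -0.14 ± 0.066 (interval -0.29 to 0.01). In MEF+B12 it was at 6.96, 7.13 and 9.16 CPM, below MEF in all 3 clones, and its adjusted p in uninduced cells was 0.361.

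Averaged over both states, the interferon-inducible ligands had the B12 differences furthest from 0, with wide intervals. Cxcl9 was higher with B12 in 4 of 6 pairs, by 0.45 ± 0.241 on average (interval -0.09 to 0.98, adjusted p = 0.42). Cxcl10 was higher in 5 of 6 pairs, by 0.32 ± 0.202 (interval -0.12 to 0.77, adjusted p = 0.494). Cxcl9 differed most in clone 2, at 1.22 without and 2.86 CPM with B12 in uninduced and 0.847 and 1.88 CPM in induced cells. The 12 interferon response genes were at a median of 0.14, and 1 of them, Oas1a, rose (0.30 ± 0.071, adjusted p = 0.0405). As 68.8% of the sequence words of Oas1a recur in other transcripts, its reads could be shared. With summed libraries Irf7 and Rsad2 passed too, at 0.21 and 0.34 (adjusted p = 0.0355 and 0.0122). Cxcl1 and Cxcl2 were at 0.07 ± 0.096 and 0.29 ± 0.349.

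The B12 difference was also compared between states and clones. The interaction of B12 and induction passed for 0 of 9 ligands with edgeR (0% of all genes) and 0 with DESeq2 (0%), and 0 had an unadjusted p under 0.05 (1.42%). The B12 response differed between clones for 0 of 9 with edgeR (0%) and 0 with DESeq2 (0%), and for 0 at an unadjusted p under 0.05 (1.18%).

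Macrophage markers rose with B12 while the 9 ligands did not pass. Of 13 markers, 11 rose and 0 fell in the averaged comparison, all but Cx3cr1 and Aif1, with a median of 0.56. Adgre1, which encodes F4/80, rose by 0.63 ± 0.073 (adjusted p = 0.000778), and Csf1r rose by 0.71 ± 0.083 (adjusted p = 0.000773). The 13 markers summed to 1238 to 2378 CPM in MEF, 1874 to 3159 CPM in MEF+B12, 1255 to 2182 CPM in OSKM and 1920 to 2529 CPM in OSKM+B12, and no marker was at 0 throughout. Most of that sum was Lyz2, with means of 1062 CPM in MEF and 1414 CPM in MEF+B12. Reads of Lyz2 could be shared, as 32.8% of its sequence words recur in other transcripts. The neutrophil list summed to at most 1.86 CPM, with S100a9 at 0 in all libraries. In the fit with summed libraries, 12 of the 13 passed as higher and Cx3cr1 as lower (-0.44, adjusted p = 0.0173). The annotated span of Cx3cr1 overlaps Csrnp1, Gorasp1 and Xirp1 on the same strand, so some of its counts could be shared. With B12, 0 of 10 fibroblast and 0 of 3 epithelial markers tested passed, and of 4 endothelial markers Vwf fell (-0.66 ± 0.141, adjusted p = 0.0247). All 10 fibroblast markers were nonetheless lower with B12 on average, with a median of -0.109 against -0.013 over all genes. Summed libraries also gave lower Fn1 (-0.27, adjusted p = 0.0106) and Thy1 (-0.15, adjusted p = 0.0381) among the fibroblast markers. The part of macrophages in the ligand values was not tested.

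Among the other chemokine genes, Pf4 (also called Cxcl4), a ligand stored in platelets and also made by macrophages, was the only one of 5 other CXC ligands tested that changed with B12. It was at 10.8, 3.37 and 1.58 CPM in MEF for clones 1, 2 and 3 and at 16.8, 9.01 and 4.97 CPM in MEF+B12. In induced cells it went from 7.15, 2.77 and 2.23 CPM to 15.2, 5.50 and 4.45 CPM. The rise of 1.09 ± 0.133 on the log2 scale, or 2.13-fold, came in every pair of the same clone (adjusted p = 0.000936), although the groups overlapped. Ccl2 and Tnf, of the NF-kB response list, rose by 0.73 ± 0.059 and 0.91 ± 0.119 (adjusted p = 0.000146 and 0.00135), and the list's other 9 tested genes did not pass. After induction 0 of the 5 other CXC ligands passed, and 4 of 11 NF-kB response genes fell (Nfkbiz, Nfkb2, Icam1 and Ccl2) along with 1 of 12 interferon response genes (Gbp2).

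**Figure D4:**
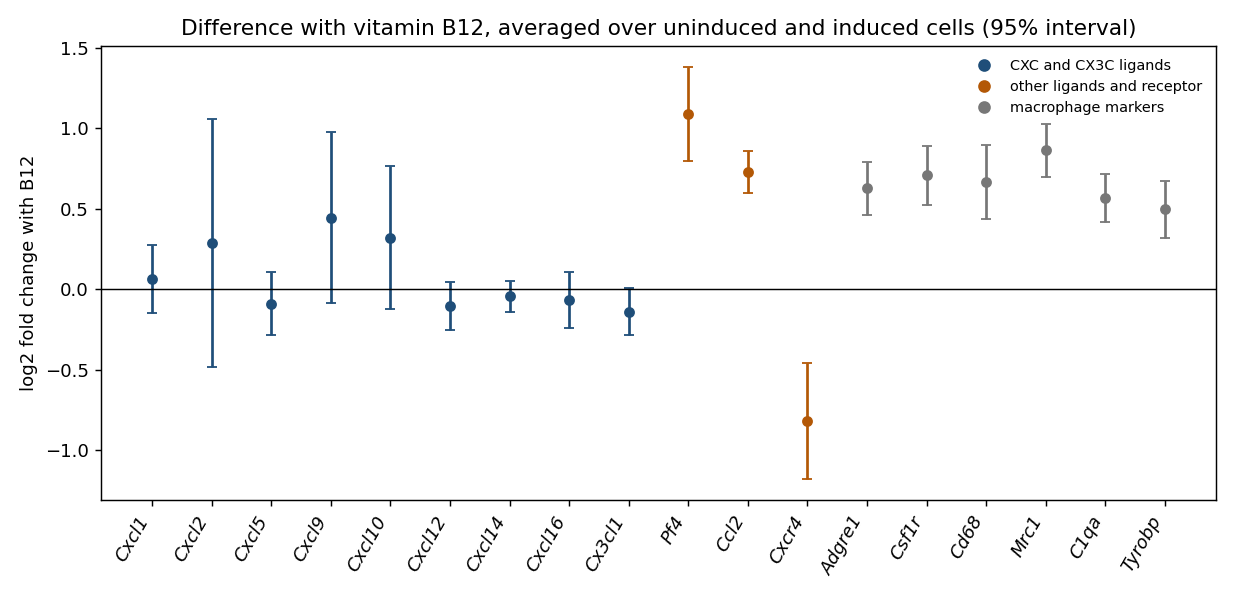
Log2 fold change with B12 averaged over both states, with its 95% interval, for the 9 ligands (blue), for Pf4, Ccl2 and Cxcr4 (orange) and for 6 macrophage markers (grey). The ligand intervals all include 0. The other genes shown had all passed the threshold in this comparison, so their intervals exclude 0. The macrophage markers Cx3cr1 and Aif1 and the other CXC ligands that did not pass are not shown.

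The receptors were mostly scarce in these cells, but Ackr3 was an exception, with every library between 29.0 and 34.9 CPM. Ackr3 changed little: pairs of the same clone differed by -0.184 to 0.113 on the log2 scale after induction. With B12 the range was -0.119 to 0.033, and Ackr3 did not pass in either averaged comparison. Cxcr1, Cxcr2, Cxcr5 and Cxcr6 had at most 10 counts in any library, and 5 of the 9 listed receptors were tested. Cxcr4, the signalling receptor of Cxcl12, was at 2.25, 3.10 and 3.39 CPM in MEF and at 0.968, 1.52 and 2.00 CPM in MEF+B12, so that these groups did not overlap. In induced cells it went from 1.17, 2.20 and 2.92 CPM to 0.485, 1.40 and 2.35 CPM. The fall with B12 was 0.82 on the log2 scale (log2 fold change -0.82 ± 0.164, adjusted p = 0.0171), with 6 of 6 pairs lower. Cxcr4 was not past the threshold for induction (-0.36 ± 0.164, adjusted p = 0.192). Cx3cr1, the receptor of Cx3cl1, responded to induction unequally across the clones (adjusted p = 0.00504), with the limit on its counts given above. Of the proteases and the heparan sulfate partner listed, Mmp9 and Sdc4 fell with induction (-1.45 ± 0.344 and -0.38 ± 0.074, adjusted p = 0.031 and 0.0211), and 0 of 5 passed for B12, although Mmp9 did with summed libraries (0.84, adjusted p = 0.00233). Mmp9 and Dpp4, both able to trim chemokines, were the members of that list whose response differed between clones.

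The ligands also differed in level between clones. The F test of clone passed for 8 of 9, all but Cxcl5 (adjusted p = 0.335), where 37.8% of all genes passed. It counts the 4 differently treated libraries of a clone as replicates. Clone 1 was highest in Cxcl1, with 7.37 to 8.61 CPM over its 4 libraries against 2.69 to 4.18 CPM in clone 2 and 3.57 to 4.69 CPM in clone 3 (adjusted p = 5.46e-05). Cxcl12 was lowest in clone 1, with a median of 536 CPM against 829 and 837 CPM in clones 2 and 3. Cxcl14 was highest in clone 3 at 149 to 159 CPM, as was Cx3cl1 at 9.16 to 10.1 CPM, and neither range overlapped with those of the other clones. Cxcl10 had a median of 21.9 CPM in clone 1, 9.21 CPM in clone 2 and 11.6 CPM in clone 3. Without clone 1, 4 of 9 passed (6.88% of all genes in that fit), and Cxcl1, Cxcl2, Cxcl10 and Cxcl12 did not. Clone 1 differs from the others in title year and had at most 0.0289 CPM of Xist, against 219 to 350 CPM in clones 2 and 3, so embryo, sex and year cannot be told apart in the differences of clone 1 from the others.

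Genes that followed each ligand most closely were ranked by Pearson's r of clone-centred log2 CPM over the 12 libraries, among 12322 candidates of at least 1 CPM. For Cxcl12 they were Aebp1 (r = 0.993), Sema3b (0.990) and Nkain1 (0.990), and for Cxcl5 they were Qsox1, Gpc1 and Gem (each 0.991). Cxcl14 was followed by Rcor2 (0.990), Pou6f1 (0.983) and Crip2 (0.983). For Cxcl9 they were Sh3bgrl2 (0.977), Mvb12b (0.948) and Otulinl (0.937), and for Cxcl10 they were Car13 (0.942), Hyal2 (0.928) and Ankrd13d (0.926). Cxcl16 was followed by Moxd1 (0.979), Sod3 (0.965) and Slc1a4 (0.959), and Cx3cl1 by Lzic (0.951), Sdc1 (0.946) and Wls (0.941). The scarcer Cxcl1 had Eif5 (0.902), Zfp979 (0.891) and Bcl3 (0.868), and Cxcl2 had Nap1l4 (0.935), Sprtn (0.819) and Uqcr11 (0.799). These values describe the ranking only, since libraries of a clone share an embryo and the best of so many candidates is high by selection.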

How the data were processed

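The authors made strand-specific poly(A) libraries, sequenced read pairs, aligned them by default with STAR 2.5.2 (per the labels) to GRCm38, and assigned pairs to genes with featureCounts set to the reverse strand. The deposited table holds raw counts, with the flow cells of a library added. Symbols and coordinates (1-based) came from GENCODE M21, which matched 55480 of 55573 identifiers.

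CPM was computed here with TMM factors (0.934 to 1.06), and log2 CPM with a prior count of 2. Genes were tested with edgeR 4.0.16 by its quasi-likelihood F test, with filterByExpr, terms for clone and group, and Benjamini-Hochberg adjustment over 19174 genes at 0.05. The ± after a log2 value is its standard error, and adjusted p-values are edgeR's unless DESeq2 (1.42.0) is named. Clone entered as a block since every embryo contributed to all groups. Libraries of a clone deviated together (correlations of 0.27 to 0.687 over 18 pairs, against at most 0.17 between clones). Differences between clones were tested by F tests of clone terms, with libraries of the same embryo counted as replicates. The fit was tested on simulated counts.

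The ligands and gene lists were chosen with earlier results of these data known. Named genes are the ligands, listed genes past the threshold in a comparison, defining markers of macrophages and fibroblasts, and the 3 genes most like each ligand. The untested listed genes and those given as values beside them were added after their values were seen. Lists are described by counts and medians. Alternatives were other scalings, tools and filters, no block, fits to only the libraries compared and leaving out clones or a library. Summing the libraries of a clone was added after seeing the data. Counts carry no molecular identifiers, so depth covers counting error only. The labels give doxycycline at 1 µg/ml, and the study's methods give another unit. Protein sequences were not analysed here. R 4.3.3, Python 3.11.15 and matplotlib 3.10.9 were used.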

Additional observations from a re-analysis of the deposited data

Results flagged for a closer look

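The response to induction differed between the 3 clones for Cxcl5 (edgeR F test, adjusted p = 0.0125) and for Cxcl12 (adjusted p = 0.0151). Both were lower after induction in 6 of 6 pairs, by at most 0.049 and 0.111 on the log2 scale in clone 3 and by at least 0.453 and 0.435 in clones 1 and 2. Outlying values within groups of 3 libraries were not tested.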

How the results depend on the processing

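The count of ligands past the threshold stayed at 0 for B12 in induced cells, in uninduced cells and on average, for the interaction and for the B12 response between clones, under every alternative run. For OSKM against MEF (0 of 9) it was 3 with DESeq2 (2.54% of all genes) and 3 with no filter (2.06%), and 0 to 3 (6.87% without clone 3) with a clone or the OSKM library of clone 1 left out. For OSKM+B12 against MEF+B12 (0 of 9) it was 1 with DESeq2 (2.17%), 2 with no filter (1.95%) and 0 to 5 (5.22% without clone 3) with a clone or that library left out. For induction averaged over both B12 levels (3 of 9) it was 5 with DESeq2 (12.9%) and 5 with no filter (7.71%). It was 0 with the libraries of a clone summed (0.0250%). With a clone or that library left out it was 0 to 5 (0.0524% without clone 1, 0.0155% without clone 2, 15.9% without clone 3). With no replicate block, which ignores the pairing of libraries by embryo, it was 0 (0% of all genes), and the block changed no other count. For the response to induction between clones (2 of 9) it was 4 with no filter (3.80%). With leaving out it was 0 to 3 (3.79% without clone 1, 1.01% without clone 2, 0% without clone 3). For the level between clones (8 of 9) it was 4 to 8 (6.88% without clone 1). The cause was not tested.

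The sign turned in 16 of the ligands' recomputed log2 differences, each in a comparison that the ligand had not passed. With no replicate block Cxcl2 was at 0.0841 for B12 in MEF and at 0.144 for induction on average, and fits to only the libraries compared gave it 0.0092 for B12 in MEF. Scaling by library totals gave Cxcl14 0.0233 for B12 in MEF. Over the fits that left out a clone or the OSKM library of clone 1, Cxcl10 ran from -0.458 to 0.0379 for OSKM against MEF, from -0.642 to 0.00569 for induction on average and from -0.013 to 0.526 for B12 in OSKM. Cxcl2 ran from -0.331 to 0.578 for OSKM+B12 against MEF+B12, from -0.456 to 0.35 for B12 in MEF and from -0.836 to 0.248 for induction on average. For B12 in OSKM, Cxcl1 ran from -0.102 to 0.187 and Cx3cl1 from -0.112 to 0.0521. For B12 in MEF, Cxcl14 ran from -0.0255 to 0.0305 and Cxcl16 from -0.107 to 0.0514. Fits without the block were not run for tests between clones, nor fits to only the libraries compared for averages, the interaction and tests between clones. Cxcl2 and Cxcl9 had the lowest counts, 7 to 95 and 49 to 417 per library. Cxcl10 had 398 to 1928 counts, yet its standard error for induction on average was 0.204, against 0.242 for Cxcl9. The parts of depth and of spread between libraries in these errors were not tested.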
